A study of Mus musculus with 20 samples.

Results

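The albumin gene cluster of mouse chromosome 5 is described here through the histone marks over 4 genes, Alb, Afp, Afm and Gc, of 21896 protein-coding genes in the RefSeq annotation. The 4 genes encode related plasma proteins that arose by duplication of an ancestral gene. Alb encodes albumin, the main protein of blood plasma and a carrier of fatty acids. Afp encodes alpha-fetoprotein, which the fetal liver makes and the adult liver silences. Afm encodes afamin, a carrier of vitamin E and lipid-modified Wnt proteins, and Gc encodes the vitamin D-binding protein. In hepatocytes these genes are driven by factors such as C/EBP and FOXA, and the DNA between Alb and Afp holds enhancers that act on Afp and Alb.

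A genomic interval belonged to the cluster if its midpoint lay in a gene body or within 20 kb of it. This gave 48 of 65776 H3K27ac intervals, 52 of 103014 H3K4me1 intervals and 22 of 46568 H3K9ac intervals in the consensus lists that the authors deposited. H3K4me1 is a histone mark of enhancers, H3K27ac of active enhancers and promoters, and H3K9ac of active promoters. The rule uses no measured value.

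The marks were profiled by ChIP-seq in flash-frozen liver of 9-week-old male C57BL/6 mice, kept on standard chow and then fasted for 24 h. The 4 genotypes were wild type (WT), Cpt2 L-/- (Cpt2 KO), Ppara -/- (Ppara KO) and Cpt2 L-/- ; Ppara -/- (DKO), and all groups shared the fast. Cpt2, an enzyme of mitochondrial fatty acid oxidation, was deleted in the liver, and Ppara, a nuclear receptor that responds to fatty acids, in the whole body according to the description of the DKO. The labels used here do not name the driver of the liver deletion, and no fed group was analysed. H3K27ac and H3K4me1 had 2 libraries per genotype, and H3K9ac had 1 WT and 1 Cpt2 KO library. Below, Ppara-null means the 4 Ppara KO and DKO libraries and Cpt2-null the 4 Cpt2 KO and DKO libraries of a mark. The sources do not say that libraries of a genotype came from separate mice, so p-values measure the spread between libraries, which may be technical. In bulk liver, fewer cells carrying a mark and less of the mark per cell cannot be told apart.

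The value of an interval in a library is its fold, the highest enrichment over background that the authors' peak caller gave to an overlapping peak. An interval without an overlapping peak had no call, which places it under the caller's threshold and is not a measure of 0. H3K27ac libraries held 44454 to 48929 peaks and H3K4me1 libraries 61189 to 72151. Median H3K27ac folds were 7.42 to 8.21 in Cpt2-null and 6.69 to 7.17 in Cpt2-intact libraries, so folds were centred on the median of each library before testing. The narrowest H3K27ac peak, which follows the caller's fragment length, was also wider in Cpt2-null libraries (217 to 223 bases, against 198 to 210). The numbers in the peak names separated Ppara-null (6833 to 6848) from Ppara-intact libraries (9548 to 9589) in both marks. Libraries of the same genotype and replicate carried the same number in both marks, so agreement between the marks may not be independent. The labels do not say what these numbers stand for, and whatever they mark cannot be told apart from the loss of Ppara. All 8 listed hepatocyte markers had an H3K27ac interval called in every library, against 1 of 6 Kupffer cell, 6 of 6 sinusoidal endothelium, 2 of 6 stellate cell, 1 of 6 cholangiocyte and 3 of 6 lymphocyte markers.

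The 3 genes Alb (chr5:90460870-90476602), Afp (chr5:90490714-90508907) and Afm (chr5:90518949-90553544) lie head to tail on the plus strand, in mm10 coordinates. Gaps of 14.1 kb and 10.0 kb separate them. Gc (chr5:89417511-89457898) lies on the minus strand, 1003 kb before Alb. Because the windows of Alb, Afp and Afm overlap, 15 of the 48 H3K27ac and 17 of the 52 H3K4me1 intervals belong to a pair of genes.

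In Alb and Afp, the 250 bases before the start held matches to the letters listed here for FOXA and C/EBP factors. The marks at the 4 starts differ, so these stretches are shown for all 4 genes, from RefSeq on GRCm38.p6. They span chr5:90460620-90460869 for Alb, chr5:90490464-90490713 for Afp, chr5:90518699-90518948 for Afm and chr5:89457899-89458148, minus strand, for Gc. Capitals mark matches on either strand to TATAAA (the TATA box), to CCAAT (the CCAAT box), to TGTTTNC (for FOXA factors) and to TTGCNNAA (for C/EBP factors).
Alb: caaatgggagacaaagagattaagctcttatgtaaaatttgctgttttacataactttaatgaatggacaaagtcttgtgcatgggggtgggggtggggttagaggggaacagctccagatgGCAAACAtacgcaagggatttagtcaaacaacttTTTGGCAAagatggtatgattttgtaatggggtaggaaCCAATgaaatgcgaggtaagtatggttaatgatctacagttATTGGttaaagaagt
Afp: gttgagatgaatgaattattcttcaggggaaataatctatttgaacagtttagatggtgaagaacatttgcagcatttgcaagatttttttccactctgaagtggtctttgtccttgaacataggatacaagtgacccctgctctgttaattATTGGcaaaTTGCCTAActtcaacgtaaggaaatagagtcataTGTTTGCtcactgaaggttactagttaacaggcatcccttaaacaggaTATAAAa
Afm: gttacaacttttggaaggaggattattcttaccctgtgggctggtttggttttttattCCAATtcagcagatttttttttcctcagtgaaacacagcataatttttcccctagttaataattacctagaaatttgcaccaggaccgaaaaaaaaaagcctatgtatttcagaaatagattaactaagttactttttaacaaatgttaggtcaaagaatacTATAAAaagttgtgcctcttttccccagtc
Gc: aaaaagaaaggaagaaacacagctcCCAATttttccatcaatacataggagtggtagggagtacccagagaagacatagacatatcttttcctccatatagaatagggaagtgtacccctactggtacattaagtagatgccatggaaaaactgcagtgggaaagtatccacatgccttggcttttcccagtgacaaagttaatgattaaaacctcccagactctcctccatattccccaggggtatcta

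CCAAT stood in all 4 promoters, and in 33.9% of the 32851 RefSeq promoter stretches of this length. The FOXA letters (17.8%) and the C/EBP letters (9.56%) stood in Alb and Afp and not in Afm or Gc. TATAAA (12.4%) stood in Afp and Afm. No match overlapped another, and the DR1 repeat, which PPARA reads with its partner, stood in 11 of the 32851 stretches and in none of the 4. A match describes letters only.

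The H3K27ac map of the cluster was built from a few strong blocks with long stretches without a call over the bodies of Afp and Afm. Of the 48 H3K27ac intervals, 13 were called in all 8 libraries (27.1%, against 27.8% of all H3K27ac intervals), and 17 were called in 1 library (35.4%, against 27.2% of all). Of the 52 H3K4me1 intervals, 15 were called in all 8 (28.8%, against 19.0% of all H3K4me1 intervals). Most intervals carried both marks: 42 of the 48 H3K27ac intervals overlapped an H3K4me1 interval, and 43 of the 52 H3K4me1 intervals overlapped an H3K27ac interval. Gc had 6 H3K27ac intervals called in every library, Afm 4, Alb 3, and Afp 1, which it shares with Afm.

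**Figure D1:**
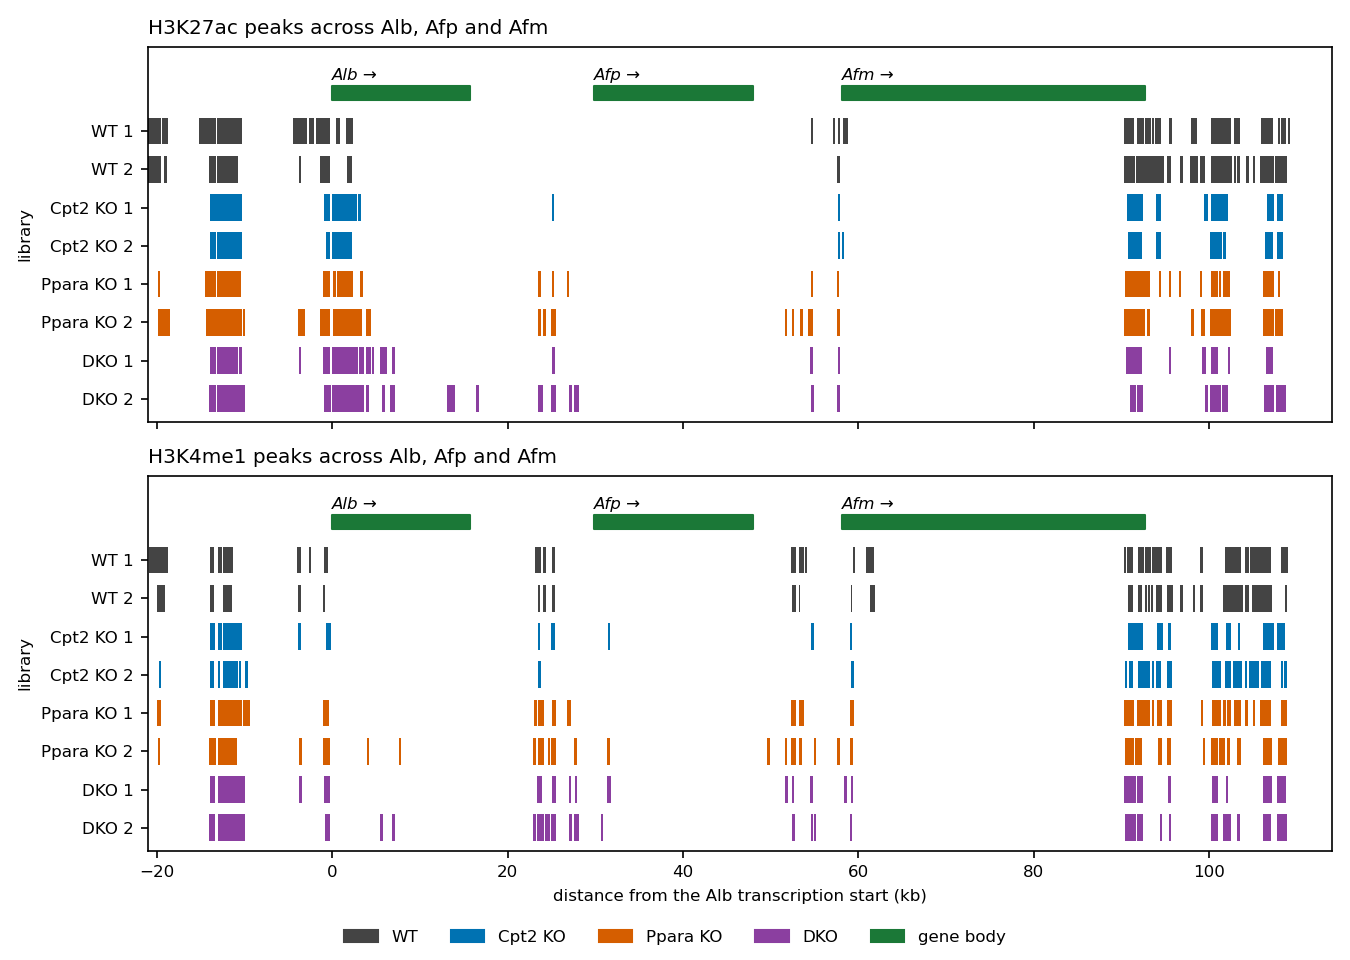
Peaks of each library across Alb, Afp and Afm, by distance from the Alb start in kb. Each row is 1 library, bars are H3K27ac (top) or H3K4me1 (bottom) peaks coloured by genotype, and green bars are gene bodies. Blocks upstream of Alb and past the end of Afm recur in every row, while the Afp body holds no H3K27ac peak.

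Alb, the gene of the main plasma protein, had its strongest H3K27ac upstream of the gene. The block at chr5:90445708-90450978, centred 12.5 kb before the start, had folds of 12.9 and 10.7 (WT), 16.3 and 13.5 (Cpt2 KO), 12.6 and 16.6 (Ppara KO), and 15.7 and 18.5 (DKO). As deposited, both DKO libraries lay above both WT libraries, while the 4 Ppara-null and 4 Ppara-intact values overlapped. The median folds of the whole libraries were also higher in DKO (7.75 and 8.21) than in WT (6.69 and 7). No share over all intervals stands beside this order. After centring, the difference was 0.22 on the log2 scale for Ppara-null against Ppara-intact (SE 0.17, limma adjusted p = 0.463) and 0.02 for Cpt2-null against Cpt2-intact (SE 0.17, limma adjusted p = 0.944). DKO against WT gave 0.24 (SE 0.23, limma adjusted p = 0.486).

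The Alb start itself fell in a gap between a block at chr5:90458997-90460698 and another at chr5:90460880-90464528, both called in all 8 libraries. The block before the start had folds of 10.9 and 8.82 (WT), 10.5 and 8.37 (Cpt2 KO), 8.21 and 14.7 (Ppara KO), and 14.3 and 11.4 (DKO), with Ppara-null and Ppara-intact values overlapping. The block inside the gene had folds of 7.09 and 6.54 (WT), 7.82 and 5.36 (Cpt2 KO), 5.56 and 8.4 (Ppara KO), and 9.17 and 14.2 (DKO). Its highest values were the 2 DKO libraries, yet DKO against WT gave 0.45 (SE 0.29, limma adjusted p = 0.292) and did not pass the test. Among genes ranked by their strongest H3K27ac interval, Alb stood 7368th of 12445, with a mean fold of 14.6 against a median of 16.1. By bases under H3K27ac peaks in the gene window Alb stood 2030th of 15397, with a mean of 9.35 kb against a median of 2.62 kb.

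H3K27ac calls inside the Alb body reached further from the start in DKO. The interval at chr5:90464718-90465272, 4.13 kb into the gene, was called in Ppara KO 2 (fold 4.5) and in both DKO libraries (5.01 and 7.69), and in no Ppara-intact library. Intervals at chr5:90466356-90467131 (4.88 and 5.25) and chr5:90467441-90468032 (5.36 and 4.11) were called in the 2 DKO libraries alone. Both were singled out after their values were seen, with no test and no share over all intervals beside them.

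H3K4me1 at Alb covered more bases without Ppara. Peaks in the Alb window covered 5.81 and 3.95 kb (WT), 4.97 and 3.54 kb (Cpt2 KO), 7.05 and 7.38 kb (Ppara KO), and 6.68 and 8.48 kb (DKO). The 4 Ppara-null libraries lay above the 4 Ppara-intact libraries, an order that 3.31% of 15735 genes showed in this direction. Per-library medians over genes did not separate in this way (1.69 to 2.33 kb in Ppara-null and 1.8 to 2.41 kb in Ppara-intact libraries). With a window of 5 kb the Alb values overlapped. The strongest H3K4me1 interval at Alb, chr5:90447832-90451469, lay under the upstream H3K27ac block and had folds of 8.34 and 8.06 (WT), 8.0 and 4.55 (Cpt2 KO), 5.51 and 6.91 (Ppara KO), and 9.71 and 7.9 (DKO). Its Ppara difference was 0.06 (SE 0.21, limma adjusted p = 0.927).

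Afp had no interval of H3K27ac or H3K4me1 over its start in any library. Its bases under H3K27ac peaks averaged 1.46 kb, 10250th of 15397 genes, and its strongest interval called in all 8 libraries was the one it shares with Afm, at chr5:90518443-90518777 (mean fold 8.37, 11541st of 12445 genes). The calls of interest lay in the gap between Alb and Afp, upstream of the silenced fetal gene.

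In that gap, H3K27ac was called mostly in livers without Ppara. The number of called intervals, of 7, was 0 and 0 (WT), 1 and 0 (Cpt2 KO), 3 and 3 (Ppara KO), and 1 and 5 (DKO). Bases under peaks were 0 and 0 kb (WT), 0.235 and 0 kb (Cpt2 KO), 0.905 and 1.13 kb (Ppara KO), and 0.379 and 2.37 kb (DKO). Every Ppara-null library exceeded every Ppara-intact library in covered bases. The numbers of called intervals were not apart, with 1 each in DKO 1 and Cpt2 KO 1. The covered-base order of DKO 1 and Cpt2 KO 1 rests on the width of a single peak in each (0.379 against 0.235 kb). The gap was singled out after its values were seen. It is not a window of the gene rule, so no share over all genes stands beside it. The Afp window of 5 kb takes in the part of that gap nearest Afp and counts the same peaks there, so it is not a separate result. In it the classes were apart for H3K27ac (0 to 0.235 kb against 0.379 to 1.40 kb, an order shown by 3.95% of 13714 genes). The values 0.235 kb and 0.379 kb are the same as in the gap. They were apart for H3K4me1 too (0 to 0.976 kb against 1.41 to 2.38 kb, 3.27% of 14330 genes). In the 20 kb window, the Afp values of both classes overlapped in both marks.

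**Figure D2:**
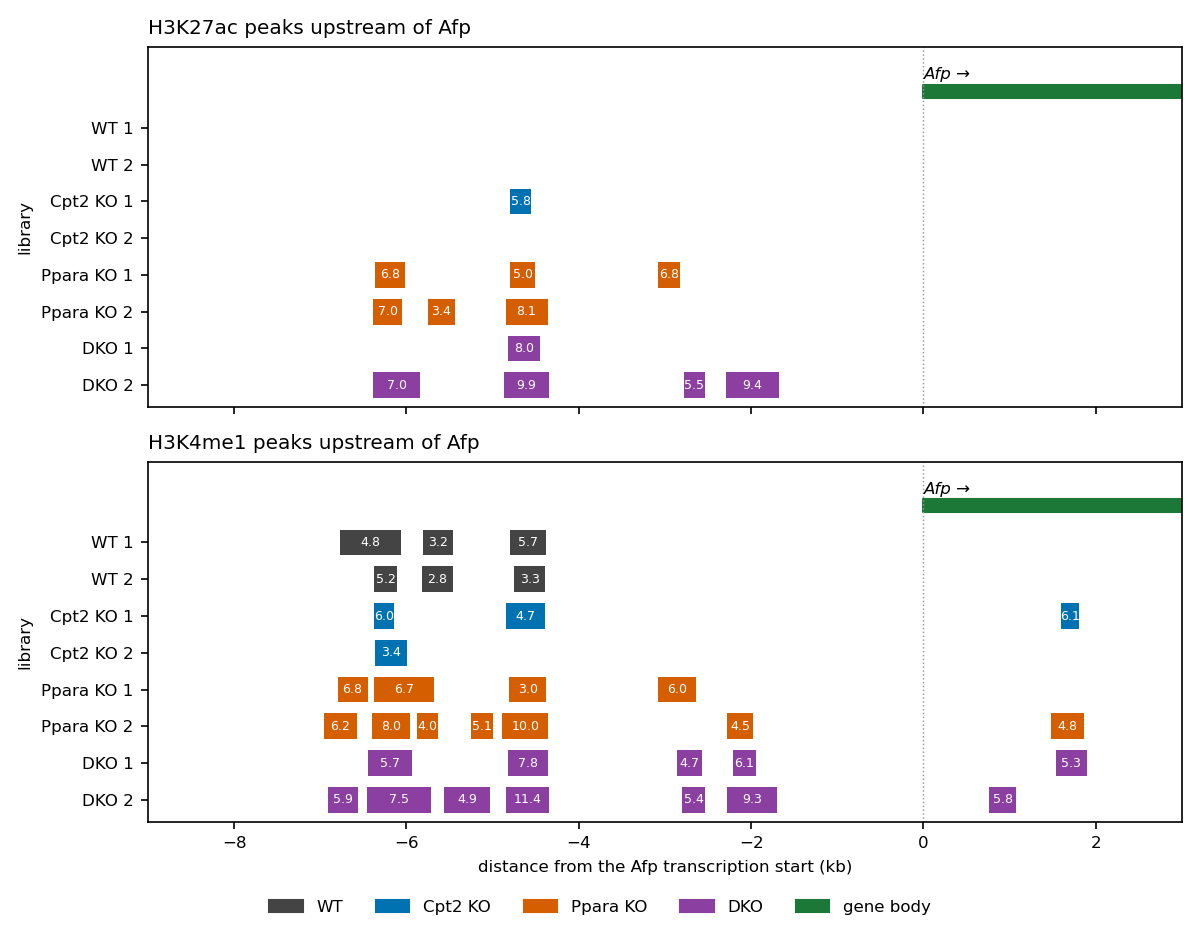
Peaks between 9 kb before and 3 kb after the Afp start, with distance in kb on the x axis and 1 library per row. Bars are peaks coloured by genotype, numbers in them are folds, and the green bar is the start of the Afp body. H3K27ac peaks (top) appear in the 4 Ppara-null libraries and in Cpt2 KO 1, while H3K4me1 peaks (bottom) about 6.0 kb upstream appear in all 8.

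The called interval farthest from Afp, chr5:90477219-90477643, 13.3 kb before the start, was called in DKO 2 alone (fold 5.86). The other 6 fell at 4 places nearer to the gene. The first place, chr5:90484325-90484872, is centred 6.12 kb before the start and had H3K27ac folds of 6.8 and 7.0 in Ppara KO and 7.0 in DKO 2, with no call in the other libraries. A narrow interval beside it, chr5:90484962-90485278, was called in Ppara KO 2 alone (3.4). The H3K4me1 interval around both, chr5:90483754-90485714, was called in all 8 libraries, with folds of 4.83 and 5.17 (WT), 6.0 and 3.44 (Cpt2 KO), 6.79 and 8.0 (Ppara KO), and 5.71 and 7.5 (DKO). H3K4me1 there was thus present in WT without a call of H3K27ac. The H3K4me1 difference for Ppara-null against Ppara-intact was 0.54 on the log2 scale (SE 0.21), with an unadjusted p of 0.021 and a limma adjusted p of 0.270.

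The second place, chr5:90485845-90486371, is centred 4.61 kb before the Afp start. Its H3K27ac folds were 5.84 (Cpt2 KO 1), 5.04 and 8.14 (Ppara KO), and 8.02 and 9.88 (DKO), with no call in either WT library or in Cpt2 KO 2. The 4 Ppara-null libraries were thus called and 1 of the 4 Ppara-intact libraries, with a fold inside the Ppara-null range, and 3 missing values leave this interval without a test. The H3K4me1 interval at this place was called in 7 libraries, with folds of 5.72 and 3.3 (WT), 4.73 (Cpt2 KO 1), 3.0 and 10.0 (Ppara KO), and 7.78 and 11.4 (DKO). The 3 highest H3K4me1 folds there were Ppara-null libraries and the lowest was Ppara KO 1.

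The other two places lay nearer the gene and carried H3K4me1 in Ppara-null livers alone. The H3K4me1 interval at chr5:90487631-90488181, 2.81 kb before the start, had folds of 6.04 (Ppara KO 1) and of 4.67 and 5.43 (DKO). The H3K4me1 interval at chr5:90488434-90489018, 1.99 kb before the start, had folds of 4.5 (Ppara KO 2) and of 6.14 and 9.29 (DKO). H3K27ac was called at the first of these in Ppara KO 1 (6.75) and DKO 2 (5.5), in separate narrow intervals, and at the second in DKO 2 alone (9.4).

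Counted over the cluster by the rule of 3 or 4 calls in a class and 0 in the other, 2 of 48 H3K27ac intervals were called in Ppara-null livers alone (4.17%, against 1.63% of all H3K27ac intervals). For H3K4me1 the count was 4 of 52 (7.69%, against 1.96%), and the 4 were the 2 upstream of Afp and 2 at Gc. No interval of the cluster was called in Ppara-intact livers alone in either mark (1.73% and 2.84% of all intervals). By the test on intervals called in all 8 libraries, 0 of 13 H3K27ac intervals passed for Ppara (7.34% of 18281 intervals did), with 0 at an unadjusted p under 0.05 (23.1% of all). For H3K4me1, 0 of 15 passed (0.128% of 19526 did), with 2 at an unadjusted p under 0.05 (13.9% of all).

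Afm had a small H3K27ac interval just before its start and large ones around and past its end. The interval at chr5:90518443-90518777, 335 bases wide and called in all 8 libraries, had folds of 7.0 and 9.0 (WT), 8.06 and 6.51 (Cpt2 KO), 8.5 and 10.3 (Ppara KO), and 8.92 and 8.75 (DKO). The groups overlapped, and the Cpt2 difference was -0.37 (SE 0.18, limma adjusted p = 0.178). The strongest interval, chr5:90560965-90563485, lies past the Afm end and inside the neighbouring gene Albfm1, which starts 7.08 kb after Afm and was not in the gene lists. Its folds were 12.1 and 14.6 (WT), 17.8 and 15.9 (Cpt2 KO), 13.6 and 16.4 (Ppara KO), and 15.1 and 14.4 (DKO).

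Bases under H3K27ac peaks in the Afm window were fewer in livers without Cpt2. They were 11.1 and 13.8 kb (WT), 6.64 and 5.92 kb (Cpt2 KO), 7.61 and 9.73 kb (Ppara KO), and 4.96 and 6.45 kb (DKO). All 4 Cpt2-null libraries lay below all 4 Cpt2-intact libraries, as they did for 11.2% of 15397 genes. H3K4me1 showed the same order, with 12.4 and 10.6 kb (WT), 7.09 and 9.43 kb (Cpt2 KO), 10.6 and 9.65 kb (Ppara KO), and 6.74 and 7.63 kb (DKO), as in 2.32% of 15735 genes. The margin for H3K4me1 was narrow (9.43 against 9.65 kb), and counting only peaks with a −log10 q-value of at least 10 ended this order, with 9.43 kb in Cpt2 KO 2 against 8.62 kb in WT 2. Whole H3K27ac libraries covered 42.0 to 44.9 Mb in Cpt2-null and 44.8 to 47.8 Mb in Cpt2-intact livers, and the part of coverage and peak width in the Afm values was not tested.

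Several intervals around Afm were called in Cpt2-intact livers alone. The H3K27ac interval at chr5:90558680-90559626 was called in both WT libraries (6.0 and 8.12) and in Ppara KO 2 (4.6) and in no Cpt2-null library. The interval at chr5:90563646-90564424, past the Albfm1 start, was called in the 2 WT libraries alone (6.0 and 7.57). It does not meet the rule and was singled out after its values were seen. For H3K4me1, chr5:90514064-90514702 between Afp and Afm was called in both WT (5.6 and 4.4) and both Ppara KO libraries (3.11 and 5.09) and in no Cpt2-null library. The H3K4me1 interval at chr5:90559790-90560152 was called in both WT libraries (3.33 and 4.63) and Ppara KO 1 (4.44). In the opposite direction, chr5:90515396-90515774 had H3K4me1 in Cpt2 KO 1 (9.98) and both DKO libraries (7.4 and 5.74) and in no Cpt2-intact library.

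A block farther on, chr5:90564969-90568201, had the strongest H3K4me1 of the Afm window and lower values without Ppara. This block also lies past the Albfm1 start. Its folds were 12.9 and 11.1 (WT), 9.26 and 9.43 (Cpt2 KO), 7.14 and 4.17 (Ppara KO), and 8.18 and 8.42 (DKO). It was the 1 H3K4me1 interval of 15 whose Ppara-null folds all lay below the Ppara-intact folds (3.13% of 19526 intervals did). The difference was -0.66 (SE 0.21, unadjusted p = 0.0059), with a limma adjusted p of 0.189.

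**Figure D3:**
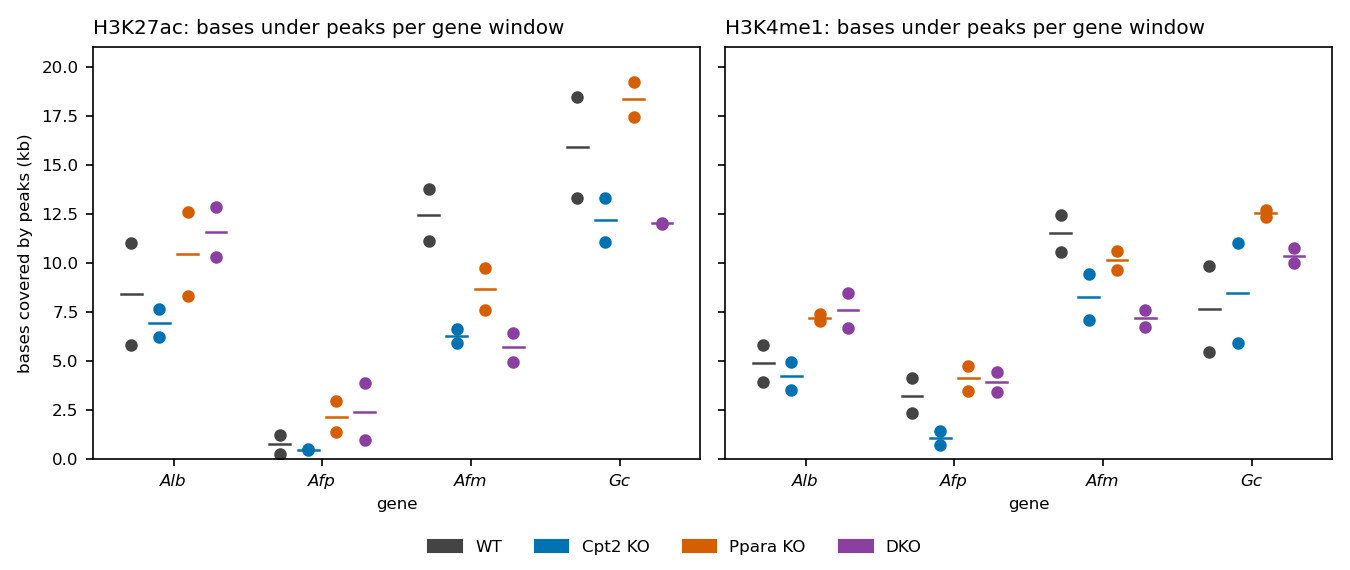
Bases under peaks in the window of each gene, in kb, for H3K27ac (left) and H3K4me1 (right). Each point is 1 library, short lines are the means of the 2 libraries of a genotype, and colours are genotypes. The Cpt2 KO and DKO points of Afm sit below its WT and Ppara KO points in both marks, and the Ppara KO and DKO points of Alb sit above the others for H3K4me1.

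Gc carried the broadest H3K27ac of the cluster and the one start under a consensus H3K27ac interval called in every library. The interval over its start, chr5:89453542-89460958, spanned 7417 bases with folds of 23.3 and 17.8 (WT), 18.6 and 15.5 (Cpt2 KO), 19.0 and 23.5 (Ppara KO), and 20.04 and 17.3 (DKO). It was the strongest H3K27ac interval of the cluster, with a mean fold of 19.4 (3957th of 12445 genes). In Cpt2 KO 2 and DKO 1 the Gc start itself fell in a narrow gap between peaks under this interval. Gc averaged 14.6 kb under H3K27ac peaks, 771st of 15397 genes. No H3K4me1 interval lay over the Gc start. The interval just before it, chr5:89457994-89459049, was called in 7 libraries with folds of 3.75 to 7.38, beside library medians of 5.83 to 6.125. The strongest H3K4me1 interval of Gc, chr5:89448825-89451971, lay in the gene body with folds of 9.65 and 8.33 (WT), 11.5 and 10.2 (Cpt2 KO), 9.33 and 10.9 (Ppara KO), and 9.71 and 12.4 (DKO).

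H3K27ac at Gc was lower without Cpt2 on the centred scale in all 6 of its intervals called in every library, and none passed the adjusted test. The interval over the start gave -0.49 for Cpt2-null against Cpt2-intact (SE 0.17, limma adjusted p = 0.067). The 6 differences ran from -0.28 to -0.7, with adjusted p values from 0.057 to 0.480, and 5 of them had an unadjusted p under 0.05. Those were all 5 such intervals among the 13 of the cluster, beside 30.1% of all intervals at an unadjusted p under 0.05. Across the cluster 0 of 13 H3K27ac intervals passed for Cpt2, where 12.3% of 18281 did, and 0 of 15 H3K4me1 intervals, where none of 19526 did. For H3K4me1, 1 of the 15 had an unadjusted p under 0.05 (9.81% of all). These values depend on centring. As deposited, the median interval was 0.25 higher on the log2 scale in Cpt2-null libraries, and centring set it at -0.01. Without centring the Gc start differed by -0.22 (limma adjusted p = 0.406), and 0 of the 13 had an unadjusted p under 0.05.

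Some markers of other cell types moved in the same contrast. Of the 13 with an H3K27ac interval called in all 8 libraries, 3 rose without Cpt2 and 0 fell. Of all 18281 intervals, 4.90% rose and 7.38% fell. The 3 were Clec4f, a Kupffer cell marker (0.88, limma adjusted p = 0.029), Colec11 of stellate cells (0.69, limma adjusted p = 0.037) and Pecam1 of endothelium (0.65, limma adjusted p = 0.025). Other listed markers were lower without being called: Oit3 (-0.29), Lyve1 (-0.18) and Kdr (-0.11) of endothelium, and Spp1 of cholangiocytes (-0.17). The summed fold of the 13, each over the library's median fold, was 26.4 to 28.2 in Cpt2-null and 20.2 to 22.6 in Cpt2-intact libraries. The sum over the 8 hepatocyte markers overlapped (20.3 to 26.5 against 20.3 to 22.7). Of these 8 markers, 0 rose and 1 fell, Serpina1a (-0.80, limma adjusted p = 0.011). The part of these markers in the Gc and Afm values was not tested.

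One Gc interval passed in the comparison of DKO with WT. The interval at chr5:89446954-89448660, inside the gene and centred 10.1 kb from the start, had folds of 10.7 and 8.17 (WT), 7.71 and 6.87 (Cpt2 KO), 6.72 and 9.43 (Ppara KO), and 6.93 and 4.56 (DKO). Both DKO values lay below both WT values. The log2 difference was -1.03 (SE 0.32, limma adjusted p = 0.036), and it was the 1 of 13 H3K27ac intervals called in this contrast, where 20.2% of all intervals were called and 11.5% were lower. Without WT 1 the difference was -0.74 (adjusted p = 0.184) and without DKO 2 it was -0.63 (adjusted p = 0.269), so the call rested on those libraries. Without centring it was -0.73 (adjusted p = 0.089). No H3K4me1 interval of the 15 passed between DKO and WT (0.133% of all did), with 2 at an unadjusted p under 0.05 (19.4% of all). For H3K27ac, 1 of the 13 had an unadjusted p under 0.05 (34.7% of all).

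**Figure D4:**
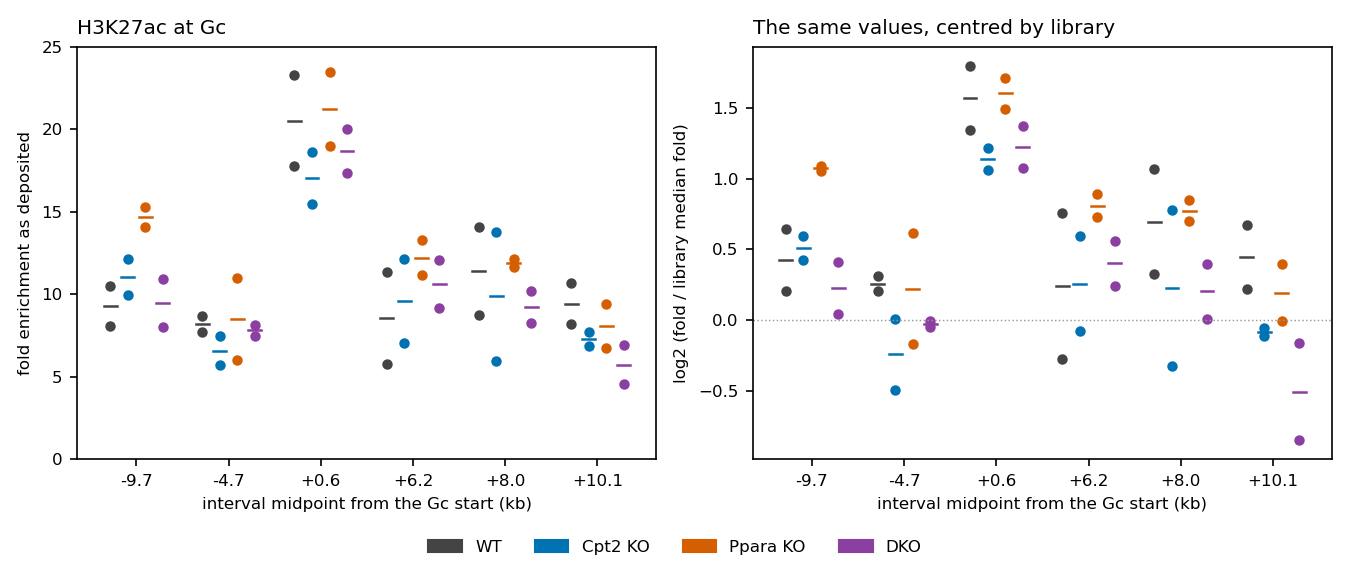
H3K27ac folds of the 6 Gc intervals called in all libraries, as deposited (left) and as log2 of the fold over the library's median fold (right). The x axis is the distance of the interval's midpoint from the Gc start in kb, points are libraries and short lines are genotype means. The interval over the start is the highest in every genotype, and the interval at +10.1 kb is lowest in DKO.

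Other Gc intervals appeared or dropped out with genotype. At chr5:89444524-89445002, 13.1 kb into the gene, H3K27ac was called in all 6 knockout libraries (Cpt2 KO 8.62 and 7.86, Ppara KO 5.62 and 5.36, DKO 6.58 and 7.0) and in neither WT library, an interval singled out after its values were seen. At chr5:89452461-89453320 it was called in WT 1 (5.4) and both Ppara KO libraries (6.64 and 6.18) and in no Cpt2-null library. Upstream, the H3K4me1 interval at chr5:89464661-89465634 was called in both WT libraries (6.14 and 4.8) and Ppara KO 1 (4.6) alone. The 2 H3K4me1 intervals of Gc called in Ppara-null livers alone had low folds, 3.7 to 5.22 at chr5:89459168-89459515 and 3.62 to 4.0 at chr5:89470084-89470892. By the same rule, 3 of 48 H3K27ac intervals of the cluster were called in Cpt2-intact livers alone (6.25%, against 2.49% of all), of which the third, chr5:90441400-90442428, lies 19.0 kb before Alb (6.0 and 5.33 in WT, 4.57 in Ppara KO 2). None of the 48 was called in Cpt2-null livers alone, where 4.50% of all were. For H3K4me1, 3 of 52 were called in Cpt2-intact livers alone (5.77%, against 1.30%) and 1 in Cpt2-null livers alone (1.92%, against 1.41%).

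The effect of Cpt2 loss did not differ detectably with Ppara at any tested interval of the cluster. Of the 13 H3K27ac intervals 0 passed for the interaction (0.00547% of all did), with 1 at an unadjusted p under 0.05 (15.2% of all). Of the 15 H3K4me1 intervals 0 passed, as did none of all 19526, with 2 at an unadjusted p under 0.05 (2.90% of all).

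H3K9ac, available for 1 WT and 1 Cpt2 KO library, covered less of the windows of all 4 genes in Cpt2 KO. The deposited lists give intervals without a fold, so only presence and width can be compared, with no replicate check. Bases covered went from 5.97 kb in WT to 0.952 kb in Cpt2 KO at Alb (8 intervals to 2), from 0.667 kb to 0 at Afp (3 to 0), from 1.49 kb to 0 at Afm (5 to 0) and from 10.2 kb to 4.49 kb at Gc (9 to 4). Counting shared intervals once, the cluster had 22 WT and 6 Cpt2 KO intervals. The 3 Afp intervals also belong to Afm and lie near the Afm start. In a window of 5 kb, Afp had 0 kb in both libraries, so it is no separate case beside Afm. In that window Afm had 0.667 kb in WT and 0 kb in Cpt2 KO. The WT intervals of Afm centred 42.5 and 43.2 kb from its start lie past the Albfm1 start. Coverage was at least 2-fold lower in Cpt2 KO at all 4 genes, as at 4.05% of 14643 genes, while it was at least 2-fold higher at 10.3%. The libraries as wholes were alike in size, with 39287 WT and 41122 Cpt2 KO intervals and a ratio of covered bases of 0.998.

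The 6 intervals that remained in Cpt2 KO lay inside Alb and Gc. At Alb they lay 0.901 and 1.75 kb into the gene, and the upstream block at 12.5 kb, which had H3K27ac in all 4 WT and Cpt2 KO libraries, had H3K9ac in WT alone. At Gc an interval of 3396 bases remained next to the start, against 4348 bases in WT, and 3 intervals of 323 to 389 bases lay 3.78, 4.85 and 10.3 kb into the gene. Mean bases under H3K27ac peaks in WT and Cpt2 KO were 8.42 and 6.94 kb at Alb and 0.761 and 0.482 kb at Afp. They were 12.4 and 6.28 kb at Afm and 15.9 and 12.2 kb at Gc. The mean was lower in Cpt2 KO for each gene, and by a smaller share of the WT value than for H3K9ac. The single H3K27ac libraries of WT and Cpt2 KO were apart at Afm alone and overlapped at Alb, Afp and Gc.

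**Figure D5:**
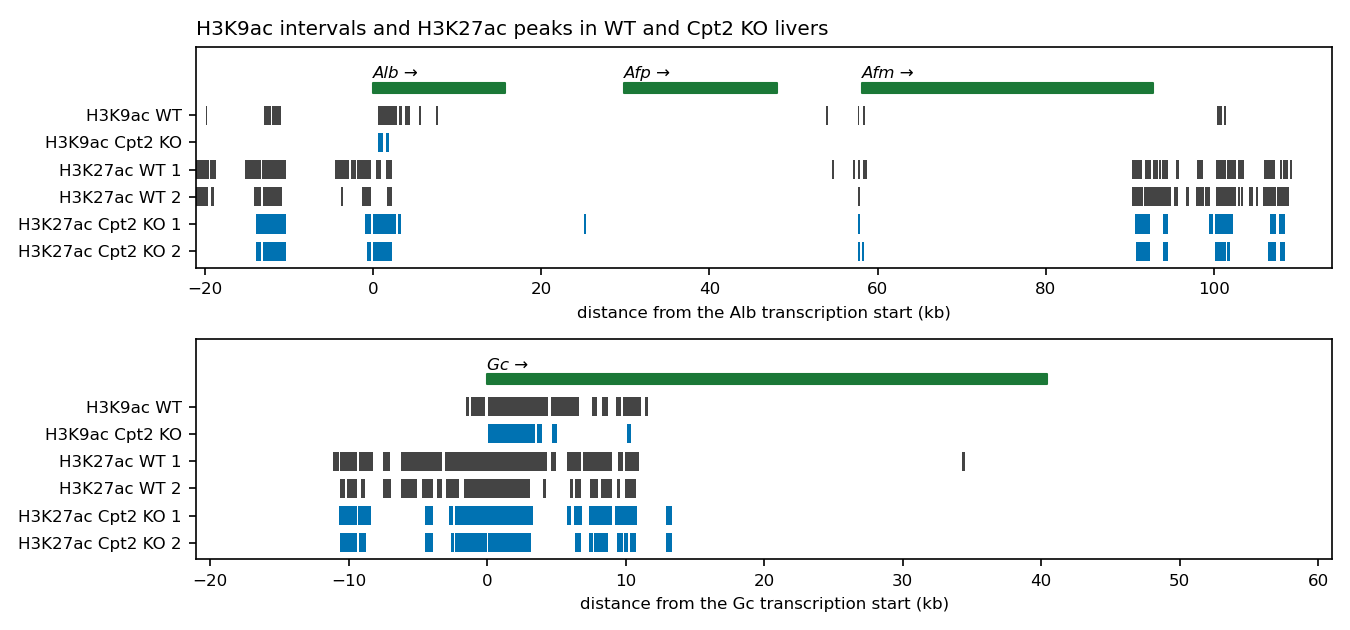
H3K9ac intervals and H3K27ac peaks of the WT and Cpt2 KO libraries, across Alb, Afp and Afm (top, distance from the Alb start in kb) and Gc (bottom, distance from the Gc start in kb). Each row is 1 library and green bars are gene bodies. The Cpt2 KO row of H3K9ac holds 2 intervals at Alb and 4 at Gc, where the WT row holds 8 and 9.

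Other liver genes were summarised by their strongest H3K27ac interval. Of 28 genes of liver plasma proteins, 9 fell and 1 rose without Cpt2, 2 fell and 1 rose without Ppara, and 7 fell and 1 rose in DKO against WT, by limma at an adjusted p under 0.05. Fga and Fgg share 1 interval, so these genes hold 27 intervals, of which 8 fell without Cpt2 and 6 in DKO. Over all 7709 intervals that are strongest at some gene, 528 fell and 398 rose without Cpt2, 357 fell and 171 rose without Ppara, and 957 fell and 597 rose in DKO. The medians of the Cpt2 differences were -0.33 for the plasma protein genes and 0.01 for all. Of 6 neighbouring genes 4 had an interval called in every library, and none of them passed in any contrast, nor did any H3K4me1 interval of these lists. The lists were chosen with earlier results of these data known.

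The genes whose strongest H3K27ac interval varied most like that of each member over the 8 libraries were Dedd, Ubxn10 and Atoh8 for Alb (Pearson r 0.941 to 0.946) and Col5a3, Icam4 and Hspa12b for Afp (0.923 to 0.942). They were Prep, Dnmbp and Zfp949 for Afm (0.947 to 0.959) and Cacna2d3, Cenpe and Apol9b for Gc (0.934 to 0.953). These are the highest of 12445 genes, and the points share libraries and depth.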

How the data were processed

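ChIP-seq was done with antibodies to H3K27ac, H3K4me1 and H3K9ac, with pooled inputs that were not analysed here. Per the submitters' processing notes, BWA, MACS2 2.1.0 and mm10 were used. The authors deposited peaks called per library with a fold (a ratio of the peak over background) and a −log10 q-value, and consensus positions per mark without values. Sequencing depth per library is not given in the sources used here. The names in 1 Ppara KO H3K27ac list carry another build word, and it was used as mm10 because its overlap with its replicate (Jaccard index 0.723) lay within that of the other genotypes (0.713 to 0.726).

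Each interval took the highest fold of peaks overlapping it by at least 1 base. Log2 folds were centred on library medians and intervals called in all 8 libraries were fitted with limma 3.58.1 in R 4.3.3 (4 genotype means, trended variance, Benjamini-Hochberg over all tested intervals, threshold 0.05), after a test on simulated data. Contrasts were Ppara-null against intact, Cpt2-null against intact, their interaction and DKO against WT. Named intervals were those over starts, the strongest per gene and mark, those past the threshold and those called in at least 3 of 4 libraries of a class and in 0 of the other. Alternatives were other scaling, filters, overlaps, windows, covariates, filled-in values and left-out libraries. A list of regulator genes and 1 promoter motif are not reported here. The members and lists were chosen with earlier results of these data known.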

Additional observations from a re-analysis of the deposited data

Results flagged for a closer look

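At 3 of 28 intervals the effect of Cpt2 loss went in opposite directions with and without Ppara on the centred log2 scale. There both Cpt2 KO libraries lay on one side of both WT libraries, and both DKO libraries on the other side of both Ppara KO libraries. This held for 1 of 13 H3K27ac intervals (7.69%, against 7.58% of all 18281) and for 2 of 15 H3K4me1 intervals (13.3%, against 3.79% of all 19526). At the H3K27ac interval past Afm, chr5:90560965-90563485, Cpt2 KO exceeded WT by 0.12 and DKO fell below Ppara KO, with a difference of -0.33 on the centred log2 scale. The interaction was -0.44 (SE 0.30, limma adjusted p = 0.511). As deposited, the DKO folds of this interval (15.1 and 14.4) lay between the Ppara KO folds (13.6 and 16.4), so its opposite order depends on centring. At the H3K4me1 interval upstream of Alb, chr5:90447832-90451469, the differences were -0.45 with Ppara and 0.52 without it, and the interaction was 0.97 (SE 0.43, unadjusted p = 0.038, limma adjusted p above 0.99 as for every H3K4me1 interval of the cluster). At the H3K4me1 block past Afm, chr5:90564969-90568201, they were -0.36 and 0.62, and the interaction was 0.98 (SE 0.42, unadjusted p = 0.030).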

How the results depend on the processing

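Left-out libraries, the 5 kb window for counts of calls and the covered-base checks were chosen after seeing the data. No H3K4me1 interval of the cluster passed the test in any contrast under any alternative, and requiring 0.5 of the shorter peak or interval to overlap changed no count. For H3K27ac, filling uncalled libraries in at their lowest fold gave 1 call for Ppara, 1 for Cpt2 and 2 for DKO against WT among 20 intervals, all higher. Those calls came from 2 intervals kept through the libraries where they are high, with the low values imputed, so they are not a test. DKO against WT gave 0 calls without centring and 0 with the narrowest peak width as a covariate, where no interval of the series was called. Leaving out each library gave 0 to 1 calls for DKO against WT, and 0 to 1 for Cpt2 (the Gc start, -0.64, adjusted p = 0.035, without WT 2, and the Gc interval 10.1 kb into the gene, -0.90, adjusted p = 0.035, without DKO 1). Without centring, calls over all H3K27ac intervals for Cpt2 were 3504 higher and 432 lower, against 896 and 1349, and for DKO against WT 3155 and 860, against 1576 and 2109.

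Intervals called in one class alone changed as follows. In the 5 kb window, 1 H3K27ac interval was Ppara-null only, 1 was Cpt2-intact only and 1 H3K4me1 interval was Cpt2-intact only. With a −log10 q-value of at least 10, 1 H3K4me1 interval was Ppara-null only and 0 were Cpt2-intact only. Leaving out a library gave 2 to 4 Ppara-null, 0 to 3 Ppara-intact, 0 to 2 Cpt2-null and 3 to 6 Cpt2-intact intervals for H3K27ac, and 4 to 6, 0 to 1, 1 to 1 and 3 to 4 for H3K4me1. Separations of covered bases numbered 3 of 16, 3 to 6 with a library left out and 2 with a −log10 q-value of at least 10, where that of H3K4me1 at Afm ended.

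Some small differences, none called, changed sign. The Cpt2 difference at the Alb upstream H3K27ac block became -0.0021 by quantile normalization and -0.65 with the width covariate, and ran from -0.10 to 0.14 with a library left out. At the strongest Afm H3K27ac interval it became 0.16 without centring and 0.071 with the covariate (-0.17 to -0.04 with a library left out), and the Ppara difference ran from -0.11 to 0.025. At the Gc start the Ppara difference became -0.00057 with the covariate and ran from -0.084 to 0.21. For H3K4me1, the covariate gave -0.16 (Ppara) and -0.093 (Cpt2) at Alb and -0.063 (Ppara) at Gc. With a library left out the Alb values ran from -0.13 to 0.26 and from -0.16 to 0.23, the Cpt2 value at Afp from -0.34 to 0.043 and that at Afm from -0.069 to 0.32. The cause of these changes was not tested.

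Replicate numbers did not pair the libraries (correlations of deviations -0.065 to 0.172 for H3K27ac and -0.489 to 0.101 for H3K4me1). With a replicate block the cluster kept 0, 0, 0 and 1 H3K27ac calls for Ppara, Cpt2, interaction and DKO against WT, and 0 H3K4me1 calls. With 2 libraries per genotype and no depth given, precision rests on the spread between libraries.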
